A study of Mus musculus with 2 samples.

Results

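Immediate early transcription factors of the AP-1 and EGR families were examined in mouse peritoneal macrophages treated with LPS+CPN+GGOH or with LPS+CPN. The 10 genes were taken by name: Fos, Fosb, Fosl1 and Fosl2 of the FOS family, Jun, Junb and Jund of the JUN family, Atf3, and Egr1 and Egr2. They were represented by all 15 probe sets that the platform annotation assigned to exactly 1 of these symbols, out of 45101 probe sets on the array and 18093 genes with a value. The tested culture received LPS (lipopolysaccharide, a bacterial cell wall component that activates TLR4), CPN and GGOH (geranylgeraniol, an isoprenoid alcohol). Its control received LPS and CPN without GGOH, so both cultures had LPS and CPN. CPN is known here only by this abbreviation. Both sets of cells were collected from C57BL/6J mice 3 days after an injection of thioglycolate, which recruits macrophages to the peritoneum by sterile irritation. Doses, treatment times, animal ages and the number of animals behind each culture are not stated in the labels. The comparison asked which genes differed when GGOH was added to LPS+CPN, and 1 array was hybridised per condition. No difference therefore has a replicate check, and every value describes these 2 arrays.

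AP-1 is a dimer of basic leucine zipper (bZIP) proteins, most often a FOS protein with a JUN protein, although JUN proteins also pair with each other and with ATF family members. EGR proteins bind GC-rich sites through zinc fingers. In macrophages, LPS signalling through MAP kinases and serum response factor is known to switch on many of these genes within minutes and only briefly. The mRNAs of the genes switched on in this way are short-lived. Many inflammatory genes carry AP-1 or EGR sites.

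Each value is a MAS5 signal, an intensity on a linear scale that sums up the probes of a probe set. Both arrays had been brought to the same level, with a mean of 500.0 over the central 96% of probe sets. A floor was set at the pooled median signal, 59.9, below which a signal was not told apart from background. The log2 ratio is GGOH-treated over untreated, and a gene at the floor on 1 array has only a bound. Log2 ratios of different probe sets of the same gene differed with a pooled SD of 0.45 over 4166 genes. Probe sets of a gene share the same RNA, so this probe-set SD describes their disagreement and leaves out all variation between cultures. Macrophage markers were bright on both arrays. All 14 were measured, with a summed signal of 233346 with GGOH and 274717 without, and a median log2 ratio of -0.30. Of these, 1 was at least 2-fold higher, Itgam at 2.07-fold, and none lower; Cd14 (log2 ratio 0.38) and Fcgr1 (0.28) were also above 0. Mesothelial cell and fibroblast markers were at the floor for 2 of 20 genes with GGOH and for 14 of 20 without, among them Col1a1, Col3a1, Wt1 and Msln, the last 2 named after their values were seen. Their summed signal was 36020.5 with GGOH and 1883 without, and 15 of the 18 measured were at least 2-fold higher. Log2 ratios were 5.28 for Col1a2, 4.83 for Sparc, 4.47 for Fbln2 and 4.37 for Bgn by the brightest probe set, but ranged from 0.88 to 5.83 over the Col1a2 probe sets and from -0.21 to 6.03 over those of Sparc. Col3a1 was at least 25.9-fold and Col1a1 at least 17.6-fold higher. Markers of other cells were few. S100a8, of the neutrophil list, had a log2 ratio of -0.95, the endothelial gene Kdr -0.03 and the dendritic cell gene Zbtb46 0.65. The bounds were at least 1.39-fold higher for Ccr7 and at least 1.13-fold lower for Elane. Of 5 neutrophil genes with a value, 4 were at the floor with GGOH and 3 without. S100a9 was at the floor on both arrays, at 2.59 with GGOH and 3.49 without. The RNA also differed along its length: the 3' to 5' signal ratio was 1.24 with GGOH and 2.44 without for Actb, and 0.956 with GGOH and 1.98 without for Gapdh. The part of these differences in the results below was not tested. In bulk RNA, fewer cells of a type and less RNA per cell cannot be told apart.

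The stretches upstream of 3 of the genes are shown because they carry the binding sequences by which these factors are known, and one of them belongs to the FOS family gene that passed 2-fold. They are the 250 bases before the RefSeq start on build GRCm38.p6, written 5′ to 3′ in the direction of the gene, with matches to EGR, CRE and AP-1 motifs in capitals.
Fosl2, chr5:32136222-32136471, plus strand: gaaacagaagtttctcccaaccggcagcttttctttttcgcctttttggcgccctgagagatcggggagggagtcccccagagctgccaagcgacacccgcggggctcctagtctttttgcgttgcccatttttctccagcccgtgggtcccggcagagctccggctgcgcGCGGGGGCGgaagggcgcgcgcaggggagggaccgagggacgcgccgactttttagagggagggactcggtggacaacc
Fos, chr12:85473640-85473889, plus strand: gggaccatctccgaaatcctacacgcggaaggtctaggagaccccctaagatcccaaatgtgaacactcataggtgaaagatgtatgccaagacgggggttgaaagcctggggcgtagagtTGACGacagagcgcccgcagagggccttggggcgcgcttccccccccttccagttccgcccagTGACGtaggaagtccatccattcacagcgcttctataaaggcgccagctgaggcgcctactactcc
Jun, chr4:95052223-95052472, minus strand: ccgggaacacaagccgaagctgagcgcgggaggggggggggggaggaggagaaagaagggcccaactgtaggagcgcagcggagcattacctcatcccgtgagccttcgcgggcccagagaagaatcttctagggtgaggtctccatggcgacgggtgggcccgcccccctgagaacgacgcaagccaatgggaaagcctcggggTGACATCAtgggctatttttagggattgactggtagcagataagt
The capitals mark the EGR consensus GCGNGGGCG in Fosl2 and the CRE half-site TGACG at both places in Fos. In Jun they mark the variant AP-1 site TGACATCA, a site through which JUN and ATF proteins are known to bind the Jun promoter.

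Upstream windows were at hand for 8 of the 10 genes, 12 windows in all, since Egr2 had several starts. None was at hand for Egr1 or Fosl1, so the bases upstream of these genes were not searched. Matches were searched on both strands and are a description of letters, not of bound sites. The EGR consensus GCGNGGGCG was found in 2 of the 8 genes, Fosl2 at -79 to -71 and Fosb at -50 to -42, and in 4.70% of all 32851 RefSeq windows of this length. The half-site TGACG was in 5 of the 8 genes (Fos, Fosb, Junb, Atf3 and Egr2). Counted by window it was in 7 of the 12, some of which overlap at Egr2, against 17.8% of all windows. TGACATCA was in Jun alone of the 8 and in 2.93% of all windows. The CArG box, the sequence bound by serum response factor, was in Egr2 alone of the 8. It was in 4 of the 12 windows, all of Egr2, and in 1.47% of all windows. The known serum response element of Fos lies farther upstream than the window. TATAAA was in Fos alone of the 8 (12.4% of all windows). The full AP-1 site TGANTCA (6.75% of all windows) and the full CRE TGACGTCA, which contains TGACG (1.55%), were found in none of the 8.

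**Figure D1:**
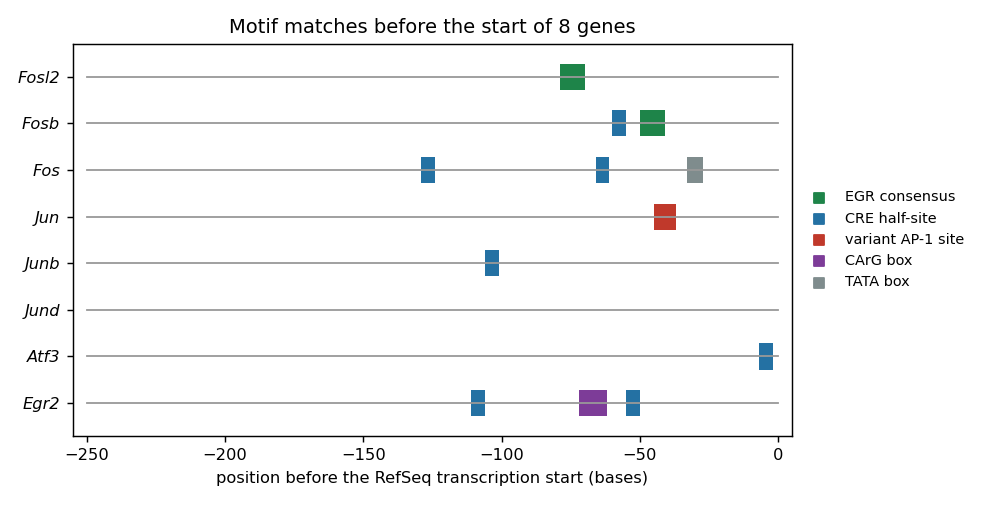
Positions of motif matches in the 250 bases before the RefSeq start of 8 genes, in bases before the start; for Egr2, 1 of its starts is drawn. The EGR consensus (green) lies at -79 to -71 in Fosl2 and at -50 to -42 in Fosb, and Jund has no match.

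All 10 genes were measured, 9 on both arrays and Fosb by a bound. With GGOH, 2 of the 10 were at least 2-fold higher, Egr1 and Fosl2, and none was 2-fold lower. Among all 11518 measured genes these shares were 5.50% for higher and 1.66% for lower. A ratio above 0 was found for 7 of the 10 genes, against 48.6% of all measured genes. The median log2 ratio of the 10 was 0.49, against -0.01 over all measured genes, whose quartiles were -0.28 and 0.29. The median of the members measured was positive under each of 9 other settings of scaling, floor and probe set choice, between 0.33 and 0.72, over 10 genes except for 9 after lowess and 8 at the 75th percentile floor. Scaling moved the median of all genes too, by -0.16 when each array was divided by its median and by 0.29 when the arrays were set to equal macrophage markers. The Fosl2 call was not kept under every setting, so 1 of the 10 genes was past 2-fold under division by array medians, under quantile normalization, or when probe sets were summarised by their median. With the floor added as a pseudocount Fosl2 also fell short (0.97), while Fosb then passed (1.16).

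**Figure D2:**
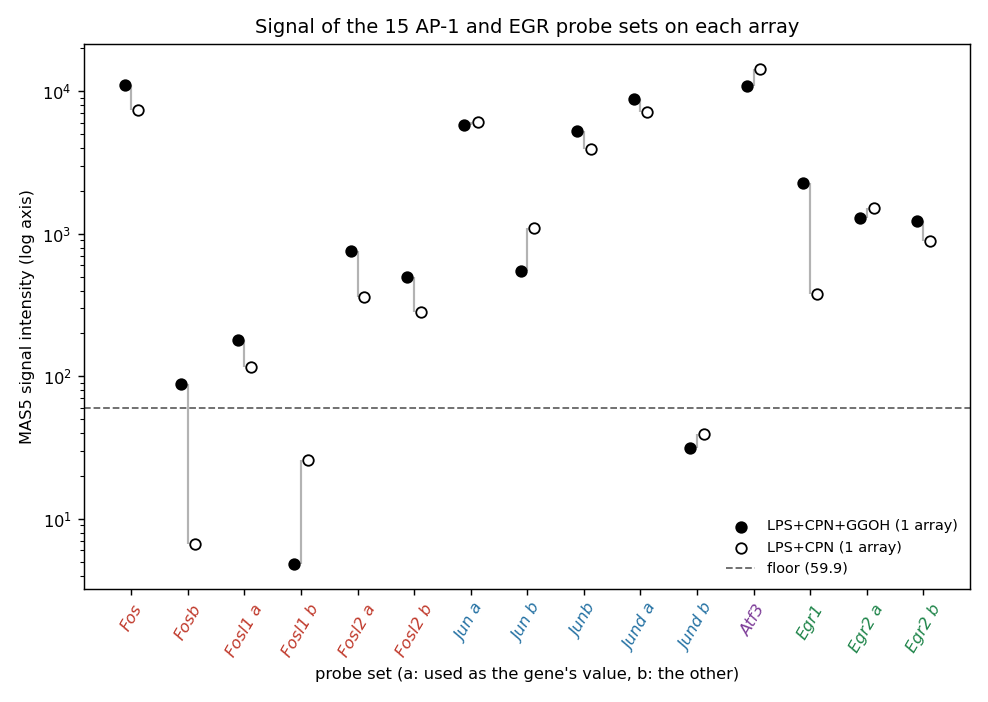
MAS5 signal (log axis) of each of the 15 probe sets on the LPS+CPN+GGOH array (filled) and the LPS+CPN array (open), with the floor of 59.9 dashed. Egr1 shows the widest gap among probe sets above the floor on both arrays, with 2259 against 378, while the second probe sets of Fosl1 and Jund lie under the floor on both.

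Egr1, a zinc finger factor that growth factors and LPS are known to induce, had a signal of 2259 on the LPS+CPN+GGOH array and 378 on the LPS+CPN array. It was 5.97-fold higher with GGOH, a log2 ratio of 2.58. Of the 9909 genes measured on both arrays, 47 (0.474%) had a higher ratio. Genes known by a bound were left out of this ranking, and some of their bounds were higher. Egr1 had a single probe set, so no second one could be set against it, and its ratio ranged from 2.40 to 2.88 under the 9 other settings. No replicate shows how far Egr1 varies between cultures. Mesothelial cell and fibroblast markers had a median log2 ratio of 2.75 between the same arrays, and their part in the Egr1 signal was not tested.

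Egr2, a relative with the same DNA-binding zinc finger type that also acts in macrophage differentiation, did not share this difference. Its brighter probe set had a signal of 1290 with GGOH and 1506 without, a log2 ratio of -0.22. Its other probe set, of the _a_at class that recognises several transcripts of 1 gene, had 1235 with GGOH and 885 without, a log2 ratio of 0.48. The sign therefore depended on the probe set, and the brighter one changed sign under equal macrophage markers (0.08). The 2 ratios lay 0.70 apart, and a gap at least as wide was seen in 22.9% of the 2608 genes with 2 measured probe sets. The log2 ratio of Egr1 exceeded that of the brighter Egr2 probe set by 2.80.

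**Figure D3:**
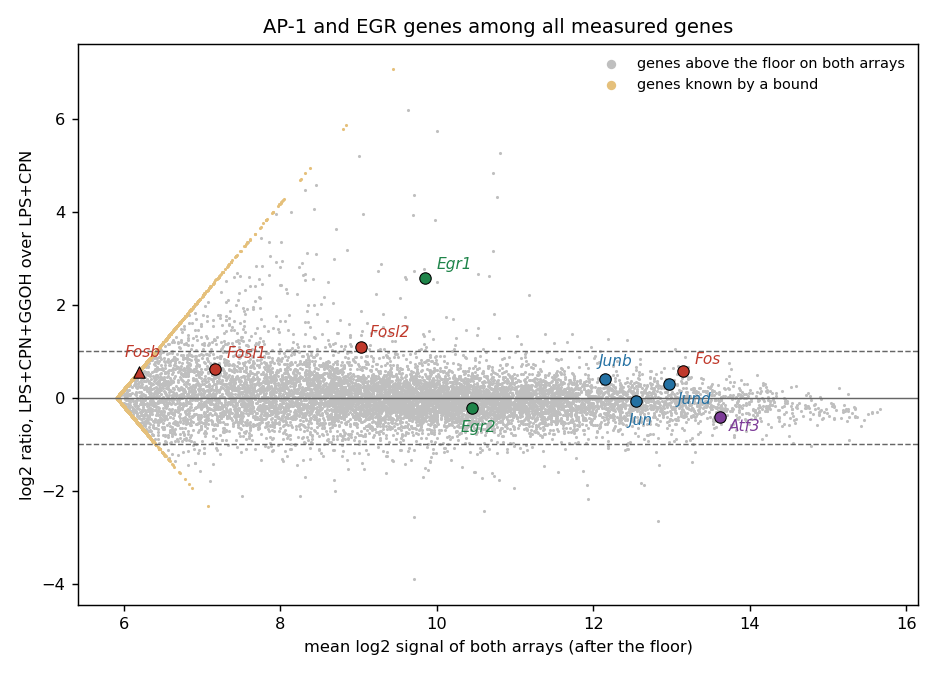
Log2 ratio of LPS+CPN+GGOH over LPS+CPN against the mean log2 signal of both arrays for 11518 measured genes; dashed lines mark 2-fold, and the triangle (Fosb) is a bound. Egr1 at 2.58 and Fosl2 at 1.09 lie above the 2-fold line, and the other genes lie within it, except that Fosb is drawn at its bound and may lie higher.

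The FOS family, whose proteins form AP-1 only as partners of JUN or other bZIP proteins, leaned the same way in all 4 genes. The log2 ratios were 0.58 for Fos, 0.62 for Fosl1 and 1.09 for Fosl2, and at least 0.56 for Fosb, which as a bound cannot be ranked among them. Fosl2, which encodes FRA2, a more lasting FOS protein that lacks the strong activation domain of c-FOS, had both probe sets above the floor. The brighter gave 760.03 with GGOH and 358 without, 2.12-fold higher, and the other gave 499 with GGOH and 282 without, 1.77-fold higher. The 2 ratios lay 0.26 apart, a gap reached or passed by 65.5% of genes with 2 measured probe sets. Both probe sets were thus higher with GGOH, and 1 of them passed 2-fold. Under the 9 other settings the log2 ratio of Fosl2 lay between 0.92 and 1.39. Of the genes measured on both arrays, 2.93% had a higher ratio than Fosl2 at the deposited scaling, with genes known by a bound again left out.

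Fos, the founding member, was bright on both arrays, with a signal of 11121.5 with GGOH and 7445 without, 1.49-fold higher. Its log2 ratio of 0.58 was short of 2-fold and lay between 0.41 and 0.88 under the other settings. Fosl1, which encodes FRA1, had a signal of 179 with GGOH and 116 without on 1 probe set, 1.54-fold higher. Its other probe set was at the floor on both arrays, at 4.81 with GGOH and 25.8 without, so it gave no ratio. Fosb, an activating FOS protein best known from neurons, was above the floor only with GGOH. Its signal was 88.5 with GGOH and 6.70 without, which gives at least 1.48-fold higher. That bound turns on the floor: it was at least 2.63 on the log2 scale with the floor at the 25th percentile, while Fosb was not measured with the floor at the 75th percentile or after lowess.

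The JUN family supplies the partner subunit of AP-1 and can also act without FOS. Junb, which LPS is known to induce and which often restrains JUN activity, had a signal of 5265 with GGOH and 3947 without, 1.33-fold higher. Jund, the JUN gene with the steadiest expression in resting cells, had 8865 with GGOH and 7176 without, 1.24-fold higher. Both log2 ratios, 0.42 and 0.31, were smaller than the probe-set SD of 0.45, which leaves out variation between cultures. Those of Fos (0.58) and Fosl1 (0.62) were not far above that SD. The second Jund probe set was at the floor on both arrays, at 31.2 with GGOH and 39.2 without.

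Jun itself gave discordant probe sets, although both are annotated to the same reference transcript. The brighter had 5807 with GGOH and 6125 without, a log2 ratio of -0.08. The dimmer had 552 with GGOH and 1105 without, 2.003-fold lower. The gap of 0.93 between the 2 ratios was reached by 12.1% of genes with 2 measured probe sets. The dimmer probe set kept a negative ratio under all 4 other scalings, from -1.17 under division by array medians to -0.70 under equal macrophage markers. The brighter ranged from -0.24 to 0.23 under the same scalings and changed sign under equal macrophage markers and after lowess. The direction of Jun is therefore not settled by these arrays, and the median over both probe sets was -0.54.

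Atf3, a stress-induced bZIP factor that in mouse macrophages is known to limit TLR4-driven cytokine transcription, was the AP-1 gene with the lowest ratio by its gene value. Its signal was 10900.1 with GGOH and 14400.3 without, 1.32-fold lower. The log2 ratio of -0.40 was smaller than the probe-set SD of 0.45 and close to the macrophage marker median of -0.30. Under equal macrophage markers it was -0.10, and it was negative under each of the 9 other settings.

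**Figure D4:**
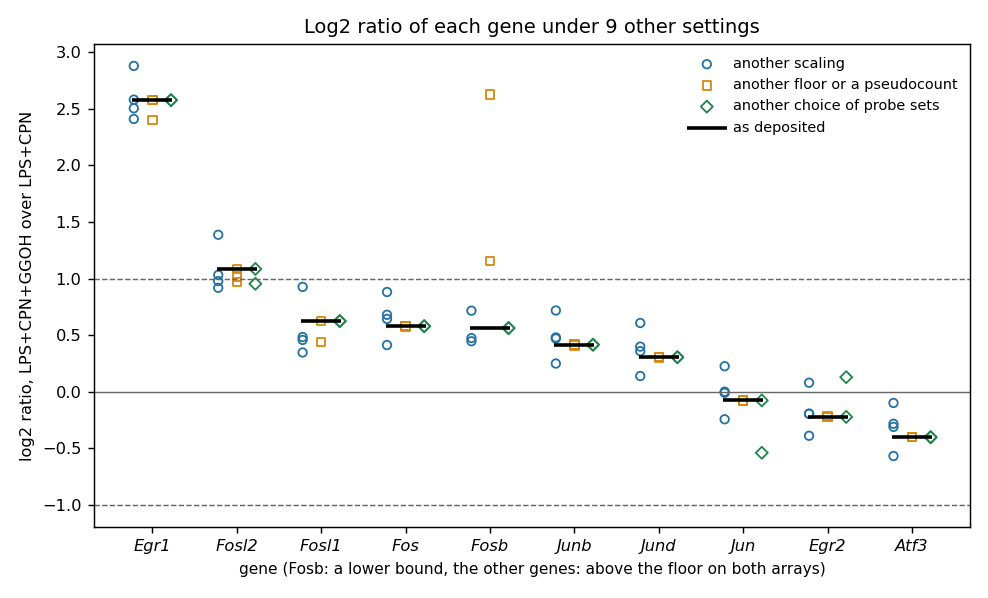
Log2 ratio of each gene as deposited (black bar) and under 9 other settings (coloured marks); dashed lines mark 2-fold. Egr1 stays between 2.40 and 2.88, Fosl2 crosses the 2-fold line between 0.92 and 1.39, and Fosb moves with the floor.

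Other bZIP genes that pair with or resemble AP-1 proteins showed little shift as a group. Of 24 measured genes, 1 was at least 2-fold higher and 1 lower, against 5.50% and 1.66% of all measured genes. Their median log2 ratio was -0.12, or 0.18 under equal macrophage markers. Cebpd, an LPS-induced C/EBP factor that sustains inflammatory gene expression, had 685 with GGOH and 218 without, 3.14-fold higher. Batf2, an interferon-inducible relative that acts with IRF proteins, had 299 with GGOH and 662 without, 2.21-fold lower. Under equal macrophage markers 3 genes of this list were at least 2-fold higher and none lower. Several such genes lie beside the members: Jdp2, a repressor that dimerises with JUN, and Batf are the next protein-coding genes after Fos in the RefSeq order, and Batf3 lies next but one to Atf3. These neighbours, chosen by position after values had been seen, had log2 ratios of -0.18 for Jdp2, 0.15 for Batf and -0.003 for Batf3. Etf1, a translation release factor gene next to Egr1, had a log2 ratio of -0.43. Hspa9 and Kdm3b, each next but one to Egr1, had 0.60 and -0.21. Neighbours of other members also lay on both sides of 0, such as Fibp near Fosl1 at 0.89 and Hook2 next to Junb at -0.86.

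Among EGR relatives and the NAB corepressors, 3 of 4 genes were measured, and their values did not reach 2-fold, though 1 of them was a bound. Egr4 was at least 1.80-fold higher, with a signal of 108 with GGOH and 31.3 without, so a difference past 2-fold is possible. With the floor at the 25th percentile all 4 were measured and 2 were at least 2-fold higher, against 10.4% of all genes measured at that floor. Their median log2 ratio was then 0.59, against 0.13 at the floor used here. Egr3, 1 of the 4, had 29.6 with GGOH and 1.15 without, under the floor used here on both arrays. Nab2, which binds and represses EGR1 and EGR2 and is itself an EGR target, had 349 with GGOH and 577 without, 1.65-fold lower. Nab2 thus lay on the other side of 0 from Egr1, at a log2 ratio of -0.73.

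Other immediate early genes passed 2-fold more often upward than downward, although their median lay below 0. Of 31 measured, 7 were at least 2-fold higher and 1 lower, against 5.50% and 1.66% of all measured genes. The median log2 ratio was -0.14 and became 0.13 under equal macrophage markers. Ccn2 and Ccn1, matricellular proteins abundant in fibroblasts, were higher by at least 134-fold for Ccn2 and at least 55.5-fold for Ccn1, whose other probe set gave a log2 ratio of at least 1.99. Gadd45a, a growth arrest gene, had 1896 with GGOH and 313 without, 6.06-fold higher. Myc, a growth regulator, was 4.02-fold higher and Phlda1 3.52-fold higher. Rhob, a small GTPase gene that is also an immediate early gene, had 3319 with GGOH and 11800.3 without, 3.56-fold lower.

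Genes upstream of AP-1 and EGR were measured for 21 of 26 listed. By the brightest probe set 2 were at least 2-fold lower, against 1.66% of all measured genes. None was at least 2-fold higher by its brightest probe set, against 5.50% of all measured genes. Other probe sets went further: log2 ratios after the floor ranged from -0.29 to 1.15 for Braf and from -0.26 to 1.003 for Map2k3. Map3k8 (TPL2), the kinase that links LPS to ERK in macrophages, had 425 with GGOH and 1008 without, 2.37-fold lower. Map3k5 (ASK1), a stress kinase upstream of JNK and p38, had 98.5 with GGOH and 227 without, 2.31-fold lower, while its other probe set had a log2 ratio of -0.24. Neither passed 2-fold under equal macrophage markers. The list's median log2 ratio was -0.26, and it was 0.04 under equal macrophage markers and 0.06 when probe sets were summarised by their median. Srf, the serum response factor gene, had a log2 ratio of 0.17, named here after its value was seen.

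**Figure D5:**
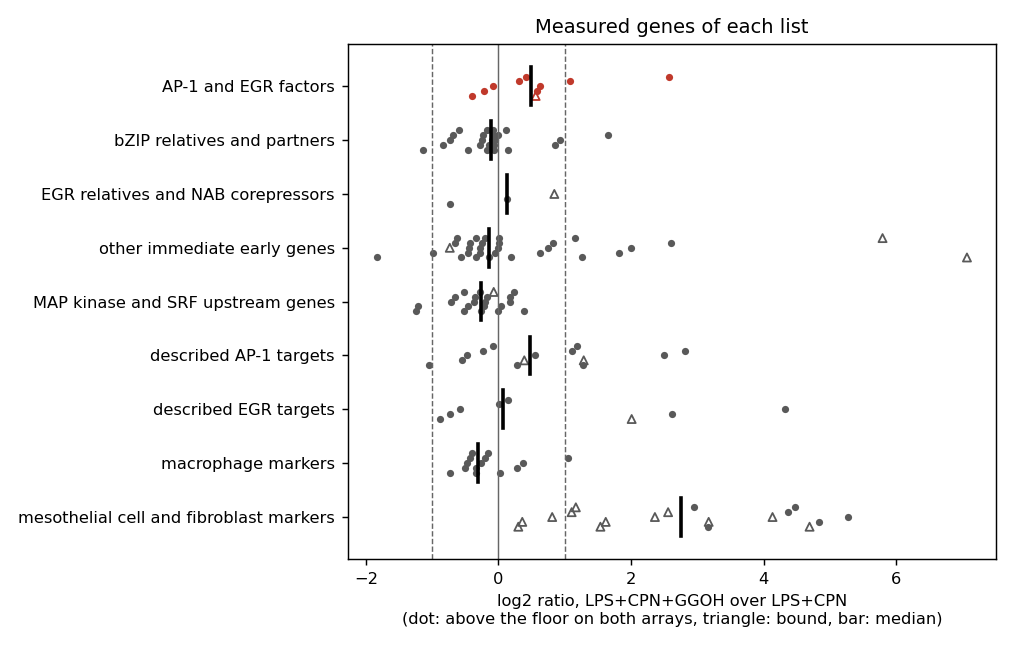
Log2 ratios of the measured genes in each list, with dots for genes above the floor on both arrays, triangles for bounds and a bar at each median. The AP-1 and EGR factors (red) have a median of 0.49, against -0.14 for other immediate early genes, -0.30 for macrophage markers and 2.75 for mesothelial cell and fibroblast markers.

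Genes described as AP-1 targets in other systems had a median log2 ratio of 0.47 over 14 measured genes. Of these, 6 were at least 2-fold higher and 1 lower, against 5.50% and 1.66% of all measured genes. Mmp9, a gelatinase, had 679 with GGOH and 96.1 without, 7.07-fold higher. The cytokine gene Il6 had 2434 with GGOH and 430 without, 5.67-fold higher. Vegfa, an angiogenic growth factor, was 2.42-fold higher and the prostaglandin synthase gene Ptgs2 2.29-fold, each with a second probe set short of 2-fold. The cyclin gene Ccnd1 was 2.17-fold higher and the stromelysin gene Mmp3 at least 2.44-fold higher. Under the other settings between 3 and 7 genes of the list were at least 2-fold higher. Ezr, the gene of the membrane linker ezrin and 1 of the 16 listed, was the lower one, chosen for naming after its value was seen; its log2 ratio was -1.04.

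Of genes described as EGR targets, 3 of 8 measured were at least 2-fold higher and none lower, with a median log2 ratio of 0.08. Among all measured genes 5.50% were at least 2-fold higher and 1.66% lower. Fibronectin (Fn1) had 7799 with GGOH and 390 without, 20.02-fold higher; its other probe set had a log2 ratio of at least 2.86, against 4.32 for this one. Thrombospondin (Thbs1) had 4045 with GGOH and 655 without, 6.17-fold higher, and its log2 ratios were 2.34 and 2.63 over its probe sets. Tissue factor (F3), which starts coagulation, was at least 4.03-fold higher. Below 0 but short of 2-fold were Pdgfb (-0.87), Nab2 (-0.73) and Icam1 (-0.58). Under division by array medians and under quantile normalization, 1 of the 8 measured genes was at least 2-fold lower. The list's median turned to -0.09 under division by array medians and to -0.006 after lowess. Between the same arrays, mesothelial cell and fibroblast markers had a median log2 ratio of 2.75 and macrophage markers one of -0.30. Which cells carried these signals was not tested.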

How the data were processed

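Gene expression was measured with 1 array for LPS+CPN+GGOH and 1 for LPS+CPN. The deposited values are signal intensity per probe set on a linear scale; MAS5 is named in the submitters' processing notes, without version or scaling target, and detection calls were not used. Probe sets were named with the platform annotation (34945 of 45037 non-control probe sets had 1 symbol, 932 several and 9160 none), and 34741 gene identifiers were found in a RefSeq table of GRCm38.p6. For gene values, 2038 _x_at probe sets, which can cross-hybridise, were left out, and each gene took its brightest probe set by mean log2 signal. Signals were floored at the 50th percentile (59.9) before the log2 ratio. With 1 array per group there is no test, SD or p-value, so precision is limited by the number of arrays.

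The members and 13 gene lists were chosen with earlier results of these data known. Named were all members, up to 6 genes of each list at least 2-fold apart (otherwise the 2 with the largest ratios). Genes named beyond this rule were chosen after their values were seen. A part of the naming rule, the genes nearest to Egr1 and to Fosl2 in signal, was not reported, since signals of different probe sets are not comparable. The 9 alternatives were division by array medians, quantile normalization, lowess (span 0.4), equal macrophage markers, a floor at the 25th or at the 75th percentile, the floor added as a pseudocount instead, the median over probe sets, and _x_at probe sets kept. Lists of neutrophil, lymphocyte, mast cell and eosinophil, endothelial and dendritic cell markers had 2, 0, 0, 1 and 3 measured genes, none of them at least 2-fold apart. The steps were tested on simulated data. Python 3.11.15, pandas 2.3.3 and statsmodels 0.14.6 were used.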

Additional observations from a re-analysis of the deposited data

How the results depend on the processing

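The number of AP-1 and EGR genes at least 2-fold higher was 2 as deposited and 1 under division by array medians, under quantile normalization, and with probe sets summarised by their median, since Fosl2 then fell short; it was 3 with the floor at the 25th percentile, where the Fosb bound passed 2-fold, and 2 with a pseudocount, where Fosb passed and Fosl2 did not. The share of all measured genes at least 2-fold higher also rose with the floor at the 25th percentile, to 10.4% from 5.50% as deposited. That share was below 5.50% under division by array medians, under quantile normalization, and with probe sets summarised by their median. No member was 2-fold lower under any of the 9 alternatives. Of all genes, 634 were at least 2-fold higher as deposited, against 1070 under equal macrophage markers, 1658 with the floor at the 25th percentile and 126 at the 75th. At least 2-fold lower were 191 as deposited, 332 under division by array medians, 304 under quantile normalization, 79 under equal macrophage markers, 1127 with the floor at the 25th percentile and 88 at the 75th; the floors change which genes are tested. The share of higher among genes past 2-fold was 76.8% as deposited, 61.4% under division by array medians, 62.5% under quantile normalization, 64.7% after lowess, 93.1% under equal macrophage markers, 59.5% with the floor at the 25th percentile and 58.9% at the 75th. Single ratios moved past the probe-set SD for Fosb (1.16 with a pseudocount, which is no bound) and for Jun. Fosl1 was not measured with the floor at the 75th percentile. The cause of the changes under other scalings was not tested. No paired analysis was possible because each group has 1 array. Signals near the floor, those of Fosb and Fosl1 among them, limit what can be measured.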
